A study of Rattus norvegicus with 6 samples.

Results

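Surfactant and airway secretory genes were examined in rat myocardium, a tissue that holds neither alveoli nor airways. The rule named 8 genes (Sftpa1, Sftpb, Sftpc, Sftpd, Scgb1a1, Scgb3a2, Napsa and Foxj1), of which 7 had a row among the 32623 genes of the table, and Foxj1 was not analysed here. They were chosen by their read counts in these libraries, because lung genes stood high in 1 ischemia library, so their levels are described below and were not tested. RNA was taken from myocardial tissue of male wild-type (WT) rats. Anesthesia, mechanical ventilation and a left thoracotomy are described for the ligation surgery, and a sham operation, without its steps, for sham rats. In 3 ischemia samples the left anterior descending coronary artery had been ligated and the labels give 30 min. The 3 sham samples carry the same time in their labels, and no ligation is described for them. The part of the heart that was sampled is not given in the sources used here, and nothing says whether rats were pooled.

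Pulmonary surfactant is a film of lipid and protein made by alveolar type 2 cells, the cuboidal cells of the air sacs, where it lowers surface tension. Its proteins fall into a hydrophobic pair (Sftpb and Sftpc), which spread the film, and a pair of collectins (Sftpa1 and Sftpd), which bind microbes and are also made by cells of the conducting airway. Secretoglobins are small secreted proteins of club cells, the secretory cells of the airway lining, and Scgb1a1 is the classic marker of these cells. Napsa encodes an aspartic protease that processes pro-surfactant protein in type 2 cells and is also made in kidney. Foxj1 encodes the transcription factor that switches on motile cilia.

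The promoters of Scgb1a1 and Sftpa1 are shown because both genes stood far higher in ischemia replicate 1 than elsewhere and because lung transcription factors of the NKX2, forkhead and C/EBP families are known to act on genes of this kind. Promoter windows of 300 bases from RefSeq (most of each before the start, with the last 50 after it), in build GRCr8, were matched for 4 of the members, and those of Sftpc, Sftpd, Napsa and Foxj1 were not used here. The Scgb1a1 window lies on the minus strand at chr1:215409637-215409936 and the Sftpa1 window on the plus strand at chr16:17042014-17042313. Both are written 5′ to 3′ along the gene, with motif matches in capitals.
Scgb1a1: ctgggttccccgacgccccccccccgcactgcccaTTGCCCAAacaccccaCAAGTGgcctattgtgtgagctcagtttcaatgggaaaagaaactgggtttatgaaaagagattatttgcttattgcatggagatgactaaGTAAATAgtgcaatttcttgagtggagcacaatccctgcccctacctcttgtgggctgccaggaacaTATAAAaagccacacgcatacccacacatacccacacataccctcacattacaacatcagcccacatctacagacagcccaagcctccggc
Sftpa1: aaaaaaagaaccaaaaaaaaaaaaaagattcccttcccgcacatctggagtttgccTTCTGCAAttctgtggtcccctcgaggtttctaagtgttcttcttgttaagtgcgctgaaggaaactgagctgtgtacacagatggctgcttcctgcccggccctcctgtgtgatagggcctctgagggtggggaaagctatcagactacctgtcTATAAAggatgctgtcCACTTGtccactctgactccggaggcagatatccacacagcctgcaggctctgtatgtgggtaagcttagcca
Short motifs were searched on both strands. The NKX2 letters CAAGTG lay in both printed windows and in 13.8% of the 27457 RefSeq promoter windows. The C/EBP letters TTGCNNAA were also in both, and in 10.5% of all windows. The TATA box, searched as TATAAA, was in both printed windows and in 14.3% of all. The first of the forkhead forms searched, TATTTAC, was in the Scgb1a1 window alone and in 3.51% of all windows. The other forkhead form, with the letters TGTTTAC, was in neither printed window and in 3.76% of all. None of these letters was found in the windows of Sftpb and Scgb3a2. A match describes letters and does not show binding.

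The 6 libraries held between 68529126 and 79591989 counts, so that 3 counts, used as the detection floor, corresponded to 0.0377 to 0.0438 CPM (the count of a gene scaled to the total count of its library). Cardiomyocyte genes were abundant in every library, with a sum over 11 genes of 62267 to 92133 CPM in sham and 21581 to 44811 CPM in ischemia, so the labelled tissue was seen in all of them. The rats were described as male, yet the summed count of 3 Y-linked genes was 26 in sham replicate 1, while it ranged from 1772 to 4318 elsewhere. Ischemia replicate 1, and to a smaller degree sham replicate 3, stood apart in airway genes. The values below are therefore given for each library, and tests are given with and without ischemia replicate 1. Intervals and floors cover counting error only, and in bulk tissue fewer cells of a type cannot be told apart from less RNA per cell.

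Each of the 4 surfactant protein genes was highest in ischemia replicate 1, and at or near 0 in most other libraries. Sftpa1 (chromosome 16, 18716019 to 18719403, plus strand, positions as listed in the table with its build not stated) had 1303 counts in ischemia replicate 1, 8 in ischemia replicate 2 and 0 in ischemia replicate 3 and all sham replicates. Its CPM in ischemia replicate 1 was 148-fold that of the next library (95% counting interval 74.9 to 343). Sftpc (chromosome 15, 52211544 to 52214616, minus strand), the gene most specific to type 2 cells, had 503, 0 and 7 counts in ischemia replicates 1 to 3 and 0, 0 and 2 in sham. Only ischemia replicate 1 was clearly above the floor, 61.9-fold over the next library (29.8 to 155).

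Sftpb (chromosome 4, 100166863 to 100175938, plus strand) had 114 counts in ischemia replicate 1 and 0 in the other 5 libraries. Against 3 counts in sham replicate 1 this was at least 35.2-fold higher. Sftpd (chromosome 16, 18745458 to 18766174, minus strand), the second collectin, showed a broader pattern. It had 694, 11 and 0 counts in ischemia and 0, 12 and 56 in sham. Sham replicate 3 thus came second, with 10.9-fold (8.31 to 14.6) fewer CPM than ischemia replicate 1. For all 4 genes the remaining ischemia libraries lay within the range of sham or within 8 counts of it.

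Of the secretoglobins, Scgb1a1 reached the highest level of all members, and both had ischemia replicate 1 first and sham replicate 3 second, as Sftpd had. Scgb1a1 (chromosome 1, 225279676 to 225283326, minus strand) had 18366, 0 and 8 counts in ischemia and 11, 11 and 619 in sham. In CPM this was 231 in ischemia replicate 1, 8.83 in sham replicate 3 and at most 0.149 in the other 4 libraries. The step from sham replicate 3 to ischemia replicate 1 was 26.1-fold (24.1 to 28.4). Scgb3a2 (chromosome 18, 38292701 to 38295831, plus strand), a secretoglobin of the airways, had 1005, 4 and 0 counts in ischemia and 0, 0 and 70 in sham. It was 12.6-fold (9.92 to 16.4) higher in ischemia replicate 1 than in sham replicate 3, and both libraries stood above the other 4. Sham samples had a mean FPKM (fragments scaled by gene length and library size) of 5.18 ± 8.58 (SD, n = 3) for Scgb1a1 and ischemia samples one of 132 ± 228 (SD, n = 3), so that in each group the spread exceeded the mean and the groups overlapped.

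Napsa departed from the other members. On chromosome 1 from 100577056 to 100589836 (plus strand), it had 222, 251 and 327 counts in sham and 1544, 8405 and 2074 in ischemia. Its highest library was ischemia replicate 2, at 116 CPM, followed by ischemia replicate 3 at 30.3 CPM and ischemia replicate 1 at 19.4 CPM. All ischemia values lay above all sham values, which ranged from 3.01 to 4.66 CPM. Among 13964 tested genes 23.7% had ischemia values wholly above sham. Sham samples had 1.90 ± 0.473 FPKM (SD, n = 3) of Napsa, and ischemia samples 29.0 ± 27.8 (SD, n = 3). Neutrophil and monocyte genes were likewise highest in ischemia replicate 2, where 15 of them summed to 2980 CPM. Their sum was 356 CPM in ischemia replicate 1, 387 in ischemia replicate 3 and 15.6 to 19.5 in sham. Of these 15 genes 14 were highest in ischemia replicate 2, as were 6372 of all 17699 genes with at least 20 counts. The part of neutrophil and monocyte genes in the Napsa result was not tested. Of the 7 genes 6 were highest in ischemia replicate 1, where 11.0% of all genes with at least 20 counts were highest, and for 3 of those 6 sham replicate 3 came second, against 25.2% of the genes highest in ischemia replicate 1. This pattern is what chose the genes. Summed over these 6 members, CPM was 276 in ischemia replicate 1, 10.7 in sham replicate 3 and 0.149 to 0.318 in the remaining 4 libraries.

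**Figure D1:**
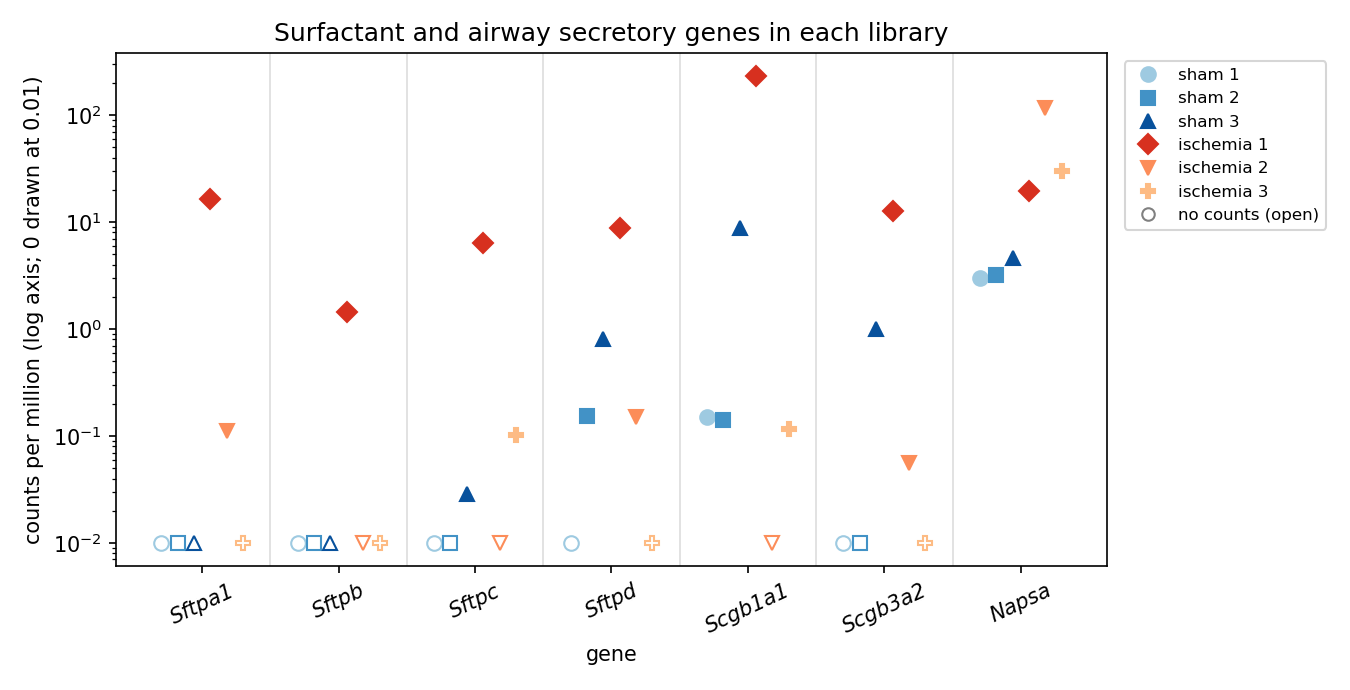
CPM (log axis, with 0 drawn at 0.01 as open symbols) of the 7 genes in each of the 6 libraries, sham in blue and ischemia in red to orange. Ischemia replicate 1 is highest for 6 genes, sham replicate 3 is second for Sftpd, Scgb1a1 and Scgb3a2, and Napsa is highest in ischemia replicate 2.

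Levels were compared between genes on FPKM, which accounts for length. In ischemia replicate 1 Scgb1a1 had an FPKM of 394 and ranked 239 among the 17733 genes with counts there. Scgb3a2 followed with 21.0, Napsa with 10.2, Sftpa1 with 8.66, Sftpc with 6.68, Sftpd with 2.31, and Sftpb was the lowest. The airway secretoglobin Scgb1a1 was thus 59.0 times the type 2 cell gene Sftpc and 438 times Sftpb in the same library. In sham replicate 3 the FPKM of Scgb1a1 was 15.1, which was 9.09 times Scgb3a2 and 72.1 times Sftpd, while Sftpa1 and Sftpb had no counts. Scgb1a1 led Scgb3a2 by 18.8 times and Sftpd by 171 times in ischemia replicate 1, so the proportions were not the same in both libraries. For scale, Myh6, the alpha myosin heavy chain of cardiomyocytes, had an FPKM of 1328 in ischemia replicate 1.

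The next question was whether other genes of the same cell types stood high in the same library. Of 12 further club and goblet cell genes with a row, 11 had at least 20 counts over the 6 libraries, and 8 of these were highest in ischemia replicate 1. The share among all 17699 genes with as many counts was the 11.0% given above. Bpifa1, an abundant secreted protein of the upper airway, had 38423, 16 and 37 counts in ischemia and 19, 15 and 3441 in sham. Its FPKM in ischemia replicate 1 was 385, close to that of Scgb1a1. Scgb3a1, a further secretoglobin, had 5354, 38 and 11 counts in ischemia and 13, 12 and 60 in sham. Both genes were thus highest in ischemia replicate 1 with sham replicate 3 second.

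Muc5b, the gel-forming mucin of airway mucus, was almost limited to ischemia replicate 1. It had 2841, 0 and 4 counts in ischemia and 0, 0 and 4 in sham, a 612-fold step in CPM (239 to 2246) to a next library with 4 counts. Bpifb1, a secreted relative of Bpifa1, had 3009, 23 and 0 counts in ischemia and 0, 0 and 134 in sham. Pigr, which carries immunoglobulin A across epithelia, had 855, 4 and 0 against 0, 8 and 62. Cyp4b1, a monooxygenase, was also highest in ischemia replicate 1, but by 1.55-fold, and ranged from 29.8 to 63.7 CPM over all libraries. Aldh3a1 was instead highest in sham replicate 1 with 41.8 CPM, and Reg3g, an antimicrobial lectin, was highest in ischemia replicate 2 with 170 CPM.

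**Figure D2:**
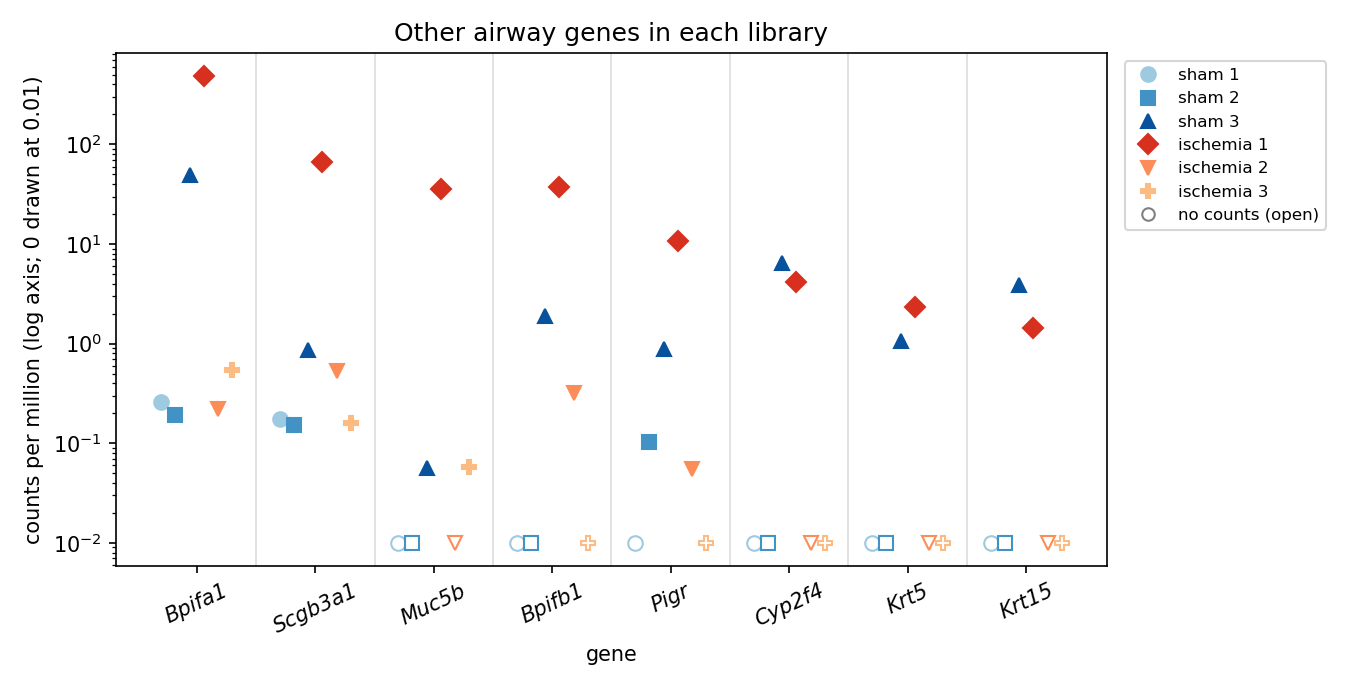
CPM (log axis, with 0 drawn at 0.01 as open symbols) of 8 further genes in each library, sham in blue and ischemia in red to orange. The genes were picked for display, 6 from the airway secretory list and Krt5 and Krt15 from the squamous and basal list. Cyp4b1, Aldh3a1 and Reg3g of the airway secretory list are not shown. Over that whole list ischemia replicate 1 and sham replicate 3 were the highest pair for 6 of 11 genes. Ischemia replicate 1 and sham replicate 3 are the pair of highest libraries for 7 of the genes, Muc5b is high in ischemia replicate 1 alone, and Cyp2f4 and Krt15 are highest in sham replicate 3.

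Genes of motile cilia and of epithelia in general followed in part. Of 19 ciliated cell genes with enough counts 12 were highest in ischemia replicate 1, and of 16 general epithelial genes 10 were. Hydin, a protein of the central pair of the ciliary axoneme, had 207, 4 and 0 counts in ischemia and 12, 0 and 45 in sham. Ccdc153 had 330, 0 and 0 in ischemia and 4, 0 and 33 in sham. Elf3, an epithelial transcription factor, had 375, 12 and 0 in ischemia and 15, 0 and 11 in sham. In FPKM, Ccdc153 (2.70) and Elf3 (2.21) in ischemia replicate 1 were near Muc5b (2.76) and Pigr (2.95) and far below Scgb1a1. Genes of these lists that were highest in another library ranged from scarce to abundant. Ccdc113 reached at most 0.249 CPM. Tppp3 was highest in sham replicate 1 (221 CPM), and Krt8 and Krt19, keratins shared with the mesothelium, were at 5.27 to 15.8 and 10.6 to 27.3 CPM in sham.

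The remaining alveolar lists, which hold several genes that were abundant in every library, were also examined. Of 10 surfactant handling genes with enough counts 2 were highest in ischemia replicate 1, and of 9 alveolar type 1 genes 2 were, beside 11.0% of all genes. The surfactant lipid transporter Abca3 lay between 26.1 and 34.4 CPM in all libraries, and Ager, a type 1 cell receptor, between 6.31 and 10.9 CPM. The 2 type 1 genes were Aqp5 and Clic5 (26451 counts there). Nkx2-1, the transcription factor of lung and thyroid identity, had 53 counts in ischemia replicate 1, 18 in sham replicate 3 and 0 in the other 4 libraries. Slc34a2, the phosphate transporter of type 2 cells, had 19, 4 and 0 in the same order. Aqp5, a water channel of type 1 cells and glands, had 239, 0 and 3 counts in ischemia and 6, 0 and 32 in sham. Cldn18, a junction protein of alveolar epithelium, had 12 counts in ischemia replicate 1 and 0 elsewhere. Lamp3, a lamellar body protein of type 2 cells, had 0 counts in ischemia replicate 1. With TMM or median-ratio scaling the counts of genes highest in ischemia replicate 1 were unchanged for the airway, ciliated, epithelial and type 1 lists and rose to 3 for the surfactant handling list.

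**Figure D3:**
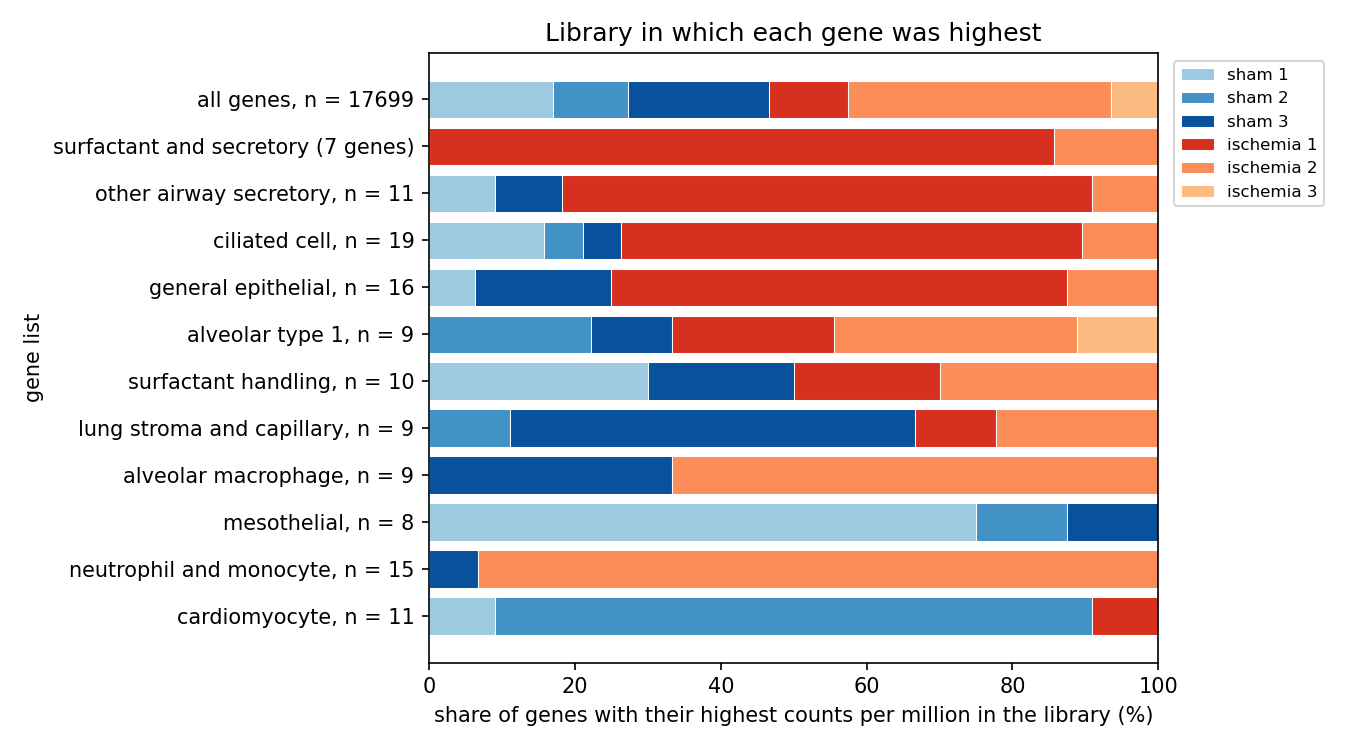
Share of the genes of each list (%) whose highest CPM lay in each of the 6 libraries, with all 17699 genes with at least 20 counts at the top. Ischemia replicate 1 (red) holds 11.0% of all genes, 6 of the 7 surfactant and secretory genes, 8 of 11 other airway secretory genes and 12 of 19 ciliated cell genes, but 2 of 10 surfactant handling genes and 0 of 9 alveolar macrophage genes.

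Whether these further genes differed between ischemia and sham was tested with the edgeR quasi-likelihood test on the 13964 genes whose FPKM averaged 0.5 or more. Of these, 5.18% passed an adjusted p of 0.05 as higher in ischemia and 1.53% as lower. Of the members 5 passed the filter, among them Sftpa1, Sftpc and Scgb3a2 only through ischemia replicate 1, and no test is given for them. The same held for the airway genes Scgb3a1, Bpifb1 and Pigr, for 3 ciliated cell genes and for 1 epithelial gene. For that reason no median of these 3 lists is given, with or without ischemia replicate 1. None of the 8 tested airway secretory genes passed with edgeR, 2 had an unadjusted p under 0.05, and DESeq2 called 0 higher and 1 lower, where it called 14.8% of all genes higher and 12.5% lower. The fit without ischemia replicate 1 called more genes over the whole table, 10.7% as higher and 7.98% as lower, and calls from it are to be read against these shares. In that fit Aldh3a1, 1 of the 8 airway secretory genes, passed as lower. Its log2 fold change was -5.19 there (edgeR adjusted p 0.0223) and -3.18 ± 1.14 (SE, edgeR adjusted p 0.118) with all libraries, and the adjusted p ranged from 0.00764 to 0.272 over the alternatives. Bpifa1 had a log2 fold change of 3.33 ± 3.04 (SE, edgeR adjusted p 0.468) with all libraries and -5.40 without ischemia replicate 1. Without both ischemia replicate 1 and sham replicate 3 it was 0.64. These were its 2 highest libraries, so the turn follows from leaving out the higher of them alone.

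None of the 7 tested ciliated cell genes passed with edgeR (2 at an unadjusted p under 0.05, DESeq2 0 higher and 2 lower, beside its shares of 14.8% and 12.5%). In the fit without ischemia replicate 1, Tppp3 and Rfx2, a ciliary transcription factor, passed as lower, where 7.98% of all genes did. Of 7 tested epithelial genes none passed (2 at an unadjusted p under 0.05, DESeq2 1 higher and 0 lower, beside the same shares). Without ischemia replicate 1, edgeR called St14 higher and Krt8, Krt19 and Prom1 lower, beside the shares of 10.7% and 7.98% over all genes. Of 7 tested mesothelial genes, which include Krt19, 1 passed as lower with all libraries, and the sum over 9 genes was 240, 114 and 170 CPM in sham and 78.4, 17.5 and 14.8 CPM in ischemia. The part of mesothelial cells in the keratin values was not tested.

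Of 8 tested surfactant handling genes 2 rose and 0 fell, beside 5.18% and 1.53% of all genes, with a median log2 fold change of -0.13 against 0.00. Both that rose encode chains of the receptor for granulocyte-macrophage colony-stimulating factor, which lung macrophages need to clear surfactant and which myeloid cells carry in general. Csf2rb rose by 2.92 ± 0.56 (SE, edgeR adjusted p 0.0405), with 2497, 1746 and 2563 counts in sham and 9774, 36130 and 9551 in ischemia. Csf2ra rose by 2.34 ± 0.46 (edgeR adjusted p 0.0430), from 842, 904 and 1012 counts to 2708, 8969 and 3350. Like Napsa, and like 6372 of all 17699 genes with at least 20 counts, both were highest in ischemia replicate 2. The sum of neutrophil and monocyte genes was 2980 CPM there, and the part of those cells was not tested. Ctsh, a cathepsin that trims pro-surfactant protein, had a log2 fold change of -0.80 ± 0.18 (edgeR adjusted p 0.0514). The values were -0.38 for Adgrf5, -0.59 for Pcyt1a, -0.12 for Abca3, -0.14 for Etv5 and 0.57 for Lpcat1 (edgeR adjusted p 0.0847), and none of these 6 passed.

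Of 6 tested alveolar type 1 genes 1 rose and 0 fell, beside the same shares over all genes, with a median of 0.26. Pdpn, a surface glycoprotein also found on lymphatic endothelium and fibroblasts, rose by 2.31 ± 0.46 (SE, edgeR adjusted p 0.0430), with 2347, 1605 and 1848 counts in sham and 5326, 17924 and 7323 in ischemia. Its highest library was again ischemia replicate 2, as it was for 6372 of all 17699 genes with at least 20 counts. Gprc5a had a log2 fold change of 1.96 (edgeR adjusted p 0.0766), which passed without ischemia replicate 1 (2.31, edgeR adjusted p 0.0284, with a range of 0.00507 to 0.206 over the alternatives). Clic5 (0.58), Emp2 (-0.29), Hopx (-0.05) and Ager (-0.68) did not pass. The calls of Csf2ra, Csf2rb and Pdpn remained without ischemia replicate 1, with log2 fold changes of 2.64, 3.22 and 2.62, and over all alternatives the highest adjusted p was 0.167, 0.162 and 0.161. No gene of the whole table passed in edgeR without sham replicate 1, 2 or 3, without ischemia replicate 3 or with the replicate number as a block.

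Because sham replicate 3 was second for many of these genes, that pair of libraries was compared gene by gene. Both libraries were the 2 highest for 6 of 11 other airway secretory genes (54.5%), 9 of 19 ciliated cell genes (47.4%), 6 of 16 epithelial genes (37.5%) and 3 of the 7 members, against 5.77% of all genes. In the 7 lists of epithelial, airway and alveolar genes combined, 27 genes had at least 10 counts in each and more CPM in both than in any other library. The ratio of ischemia replicate 1 to sham replicate 3 ran from 0.377 to 78.6 with a median of 2.64, and its counting interval lay above 1 for 23 genes, included 1 for 2 and lay below 1 for 2. In the remaining marker lists 4 more genes met the same rule, namely Foxf1 (0.737), Fabp4 (0.684), Pvalb (0.575) and Krt79 (0.503), all with a ratio below 1. Genes outside all marker lists were not searched by this rule. Several of those described below (Igh-6, Glycam1, Itln1 and Gp2) were higher in ischemia replicate 1 than in sham replicate 3. The ratio compares 2 libraries and not the conditions.

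The ratio varied widely among the 27 genes, and no test was made between kinds of gene. The 7 highest ratios were those of Scgb3a1 at 78.6 (61.0 to 103), Scgb1a1 at 26.1, Bpifb1 at 19.8 (16.6 to 23.7), Scgb3a2 at 12.6, Pigr at 12.2 (9.38 to 16.0), Sftpd at 10.9 and Bpifa1 at 9.84 (9.50 to 10.2). The 9 ciliated cell genes had a median ratio of 2.36 and the 5 general epithelial genes one of 2.22. Krt5, a keratin of basal cells, the progenitors of the airway lining, had a ratio of 2.21 (1.68 to 2.93), with 188 counts in ischemia replicate 1, 75 in sham replicate 3 and 0 elsewhere. Cyp2f4, a club cell monooxygenase, was lower in ischemia replicate 1 with 330 against 454 counts, a ratio of 0.640 (0.554 to 0.740). Krt15, a further basal cell keratin, had 115 against 269 counts, a ratio of 0.377 (0.300 to 0.470). Both had 0 counts in the other 4 libraries. The divisor between the pair of libraries was 1.13 by total count, 1.10 by TMM and 1.12 by median ratio, so scaling moved these ratios little.

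**Figure D4:**
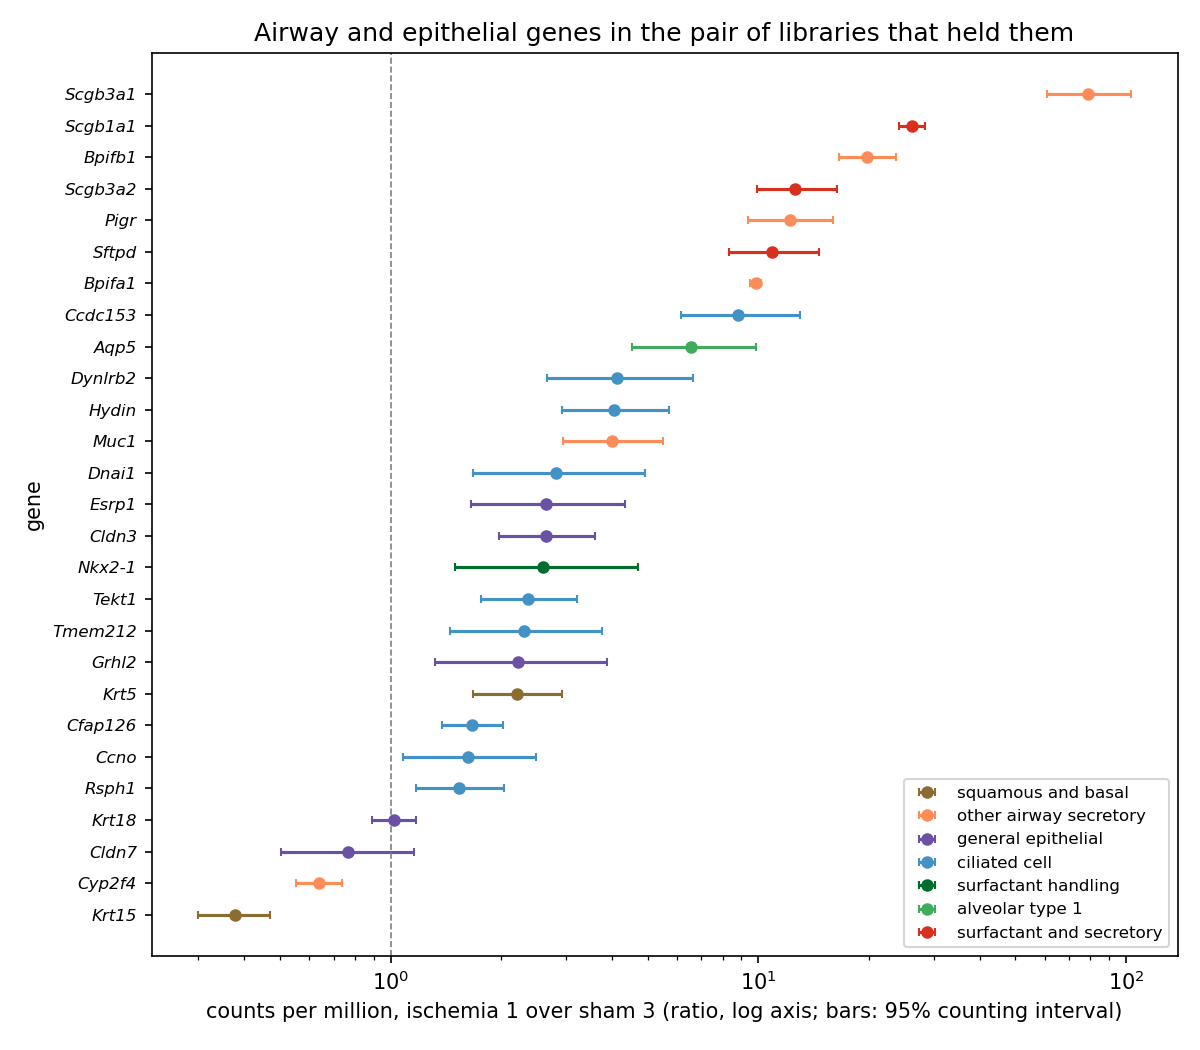
Ratio of CPM in ischemia replicate 1 to sham replicate 3 (log axis, bars are 95% counting intervals) for the 27 genes, coloured by list. The secretoglobins and Bpifb1 lie between 12.6 and 78.6, ciliated and epithelial genes mostly between 1 and 5, and Cyp2f4 and Krt15 below 1.

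The genes most like the members were ranked by the Pearson correlation of log2(CPM + 1) with the mean of the 7 members over the 6 libraries, a description that rests mostly on ischemia replicate 1. Of 12431 other named genes, Igh-6, an immunoglobulin heavy chain, came first (r = 0.991), followed by Scgb3a1 (0.988). Rnf7 (0.984), Glycam1 (0.981), Itln1 (0.981), Bpifb1 (0.980), Ppcs (0.978), Nup214 (0.977), Pigr (0.974) and Trpc4ap (0.973) completed the 10 nearest. Igh-6 had 1558, 74 and 44 counts in ischemia and 15, 41 and 139 in sham. Glycam1, a mucin-like glycoprotein, had 214, 0 and 8 in ischemia and 0, 0 and 16 in sham. Rnf7 ranged only from 36.6 to 43.5 CPM, Trpc4ap from 144 to 177 and Ppcs from 9.10 to 16.0, so a high correlation over 6 libraries went with small differences in level as well.

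Ranked instead by the excess of log2(CPM + 1) in ischemia replicate 1 over the highest other library, Reg3a came first with 5.68. Reg3a, a secreted antimicrobial lectin, had 9152, 91 and 84 counts in ischemia and 0, 6 and 0 in sham. Its relative Reg3b, with an excess of 3.28, was present in all libraries, with 153361, 14302 and 5809 counts in ischemia and 388, 3798 and 990 in sham. Scgb3a1 (5.20), Itln1 (4.33), Bpifb1 (3.74), Bpifa1 (3.27) and Igh-6 (2.79) were among the 10 as well. Itln1, an intelectin that binds microbial sugars, had 2328, 0 and 8 counts in ischemia and 0, 0 and 35 in sham. Gp2, a microbe-binding glycoprotein of secretory epithelia (3.12), had 1877, 0 and 0 against 0, 0 and 128, and Chia, an acidic chitinase of stomach and airways (2.89), had 509 counts in ischemia replicate 1 alone. Wbp11l1 (4.37) completed the list, with 2355 counts in ischemia replicate 1 and 35 in sham replicate 1. Genes at least 4-fold above every other library in ischemia replicate 1 made up 0.814% of all 17699 genes, or 144, and included 6 of the 7 members and 5 of the 11 other airway secretory genes.

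Markers of other lung cells and of neighbouring organs were set beside these values. The alveolar macrophage genes had 0 of 9 members highest in ischemia replicate 1. Over 10 genes of that list the sum was 358, 432 and 771 CPM in sham and 786, 1054 and 470 CPM in ischemia. Marco, a scavenger receptor of these cells, had 4 counts in ischemia replicate 3 and 0 elsewhere. The lung stroma and capillary genes had 1 of 9 highest there, with a sum of 23.9 CPM against 22.9 to 60.2 in the other libraries. Atrial genes summed to 50971, 394 and 39224 CPM in sham and to 9779, 2889 and 1672 CPM in ischemia. Ischemia replicate 1 was thus the highest of its group and sham replicate 3 the second of its group, after sham replicate 1, which had 0.149 CPM over the 6 members other than Napsa. The part of atrial tissue in the members' values was not tested. Of the thymus genes, Ccl25 had 0 counts in all libraries and Foxn1 had 4 in ischemia replicate 1 alone. The summed level of the 7 thymus genes was 3.33 CPM in ischemia replicate 1 and 0.522 to 6.21 in the others. The 6 skeletal muscle genes summed to 4.05 CPM against 3.63 to 9.04, within the range of the other libraries. The edgeR test called 5.18% of all genes higher and 1.53% lower. Higher in ischemia were 3 of 8 alveolar macrophage genes (Mcemp1, Olr1 and Chi3l1), 10 of 11 neutrophil and monocyte genes and Cd8b, the only thymus gene tested. Lower in ischemia were 1 of 6 stroma and capillary genes and 1 of 7 mesothelial genes. None of 11 cardiomyocyte, 7 atrial, 2 skeletal muscle and 1 thyroid genes passed, with 3, 2, 0 and 0 at an unadjusted p under 0.05.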

How the data were processed

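The authors deposited a table of raw read counts per Ensembl rat gene, not normalized, beside FPKM values that they had scaled by gene length and library size, with genes without reads set to 0.0001. STAR and HTSeq are named, without versions or roles, in the submitters' processing notes. The genome build, annotation release and strand setting were not given in the sources used here. Libraries came from a stranded total RNA kit. Where genes are related in sequence (secretoglobins, the Reg3 family, keratins), reads could have been split between them, which was not examined. The listed gene models of Krt14 and Krt19 overlap.

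Ischemia was compared with sham by the edgeR quasi-likelihood test on the deposited counts with TMM scaling, over 13964 genes whose FPKM averaged at least 0.5 in the 6 samples, with Benjamini-Hochberg adjustment over all of them and a threshold of 0.05. The test was checked on simulated data for this comparison, where it recovered 37% of 200 genes changed by 2 on the log2 scale among 13964, with 3 false calls of 77. CPM was taken on total counts, 3 counts served as the floor, and ratios carry exact conditional binomial intervals at 95%. Depth was 68529126 to 79591989 counts per sample. Samples were grouped by the treatment label and replicate numbers came from the titles. The labels do not say that samples came from separate animals, so p-values measure the spread between these samples.

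Members and lists were chosen with earlier results of these data known. Named genes are the members, the genes past the threshold and the most abundant genes of 5 lists, the 10 most correlated and the 10 with the largest excess. Muc5b, Cyp2f4, Krt5, Krt15, Hydin, Ccdc153, Elf3, Nkx2-1, Slc34a2, Aqp5, Cldn18, Lamp3, Gprc5a, Lpcat1, Etv5, Ccdc113 and the markers of other organs were singled out after their values were seen. Promoter sequences are from RefSeq (GRCr8). Alternatives were 2 scalings, DESeq2, limma on log2(FPKM + 0.1) and log2(FPKM + 1), 2 filters, the replicate block and leaving out each sample. Tests ran with edgeR 4.0.16, DESeq2 1.42.0 and limma 3.58.1 under R 4.3.3, and figures and intervals with scipy 1.17.1 and matplotlib 3.10.9 in Python 3.11.15. Reads and Foxj1 were not analysed here.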

Additional observations from a re-analysis of the deposited data

How the results depend on the processing

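Leaving out both ischemia replicate 1 and sham replicate 3 was chosen after seeing the data, and all other alternatives were planned. The log2 difference of Scgb1a1, 4.70 with all libraries, turned to -2.16 with the replicate block, to -5.62 without ischemia replicate 1 and to -1.40 without both libraries, and that of Scgb3a2 (3.70) turned to -3.54 without ischemia replicate 1 and was 3.54 with the replicate block. These values describe genes chosen for being high in ischemia replicate 1, so a turn without that library is set by the choice. Over the other fits that left out 1 sample, they reached up to 8.91 and 4.29. In limma on log2(FPKM + 0.1) and log2(FPKM + 1) they were 0.93 and 1.42 for Scgb1a1 and 1.49 and 1.06 for Scgb3a2. No value is given for Scgb3a2 without sham replicate 3 or without both libraries, nor for Sftpa1 and Sftpc, because the sham libraries left held at most 3 counts each. Napsa stayed between 2.74 and 4.32 in edgeR, DESeq2 and limma. The replicate numbers share only a number (mean correlation of deviations -0.129 for same-numbered and 0.0592 for differently numbered samples). With the replicate block 0 genes were higher and 0 lower in edgeR, where 3349 had an unadjusted p under 0.05, so 0 surfactant handling and 0 alveolar type 1 genes were higher.

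Among all genes, DESeq2 called 2071 higher and 1742 lower. Equal totals gave 83 lower, no expression filter 93 lower, and leaving out both libraries 40 higher and 13 lower, against 723 and 214. Leaving out 1 sample gave 0 to 1490 higher and 0 to 1115 lower genes. In the same fits surfactant handling genes called higher ranged from 0 to 2, type 1 genes from 0 to 2, epithelial genes from 0 to 1, and genes called lower from 0 to 1 for airway secretory, 0 to 2 for ciliated and 0 to 3 for epithelial genes. Leaving out both libraries gave 0 surfactant handling and 0 type 1 genes higher. Type 1 genes called higher were 0 with equal totals and 2 with DESeq2, and DESeq2 called 1 type 1 gene, 2 surfactant handling, 1 airway secretory and 2 ciliated genes lower and 1 epithelial gene higher. Surfactant handling genes called lower were 1 with median-ratio scaling and 1 at a mean FPKM of at least 5, and epithelial genes called lower were 1 with limma at either pseudocount. The cause of these shifts was not tested. At 3 counts per library the depth could not show levels under 0.0377 CPM.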

Other observations

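Squamous and basal genes differed in the library where they were highest. Krt5, Krt14 and Krt15 had 188, 252 and 115 counts in ischemia replicate 1 and 0 in ischemia replicates 2 and 3, while sham replicate 3 had 75, 58 and 269. Krt14 also had 72 counts in sham replicate 2 and 8 in sham replicate 1, where Krt5 and Krt15 had 0. Krt13 had 106, 34 and 90 counts in sham and 12, 0 and 0 in ischemia, and Krt4 had 0, 0 and 4 in sham and 23, 183 and 80 in ischemia. Dsg3, a desmosomal cadherin, had 212, 1516 and 214 counts in ischemia and 26, 0 and 0 in sham, and Sprr1a, a cornified envelope protein also induced by stress, had 4, 301 and 28 against 0, 0 and 4. Krt4, Dsg3 and Sprr1a were highest in ischemia replicate 2. Of the 3 squamous genes tested none passed with edgeR, with a smallest adjusted p of 0.0812 and 2 at an unadjusted p under 0.05.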
